A study of Mus musculus with 12 samples.

Results

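Of the 12 subcutaneous Renca tumors in the series, the 6 with the most T cell receptor transcript (T-cell-rich) were set against the 6 with the least (T-cell-poor). Renca is a mouse renal carcinoma cell line. The tumors had been grown under the skin of BALB/C mice and were taken whole, tumor cells and stroma together, at day 14. The mice of 6 tumors (IK) also carried a Renca tumor in the kidney, and those of the other 6 (SC) did not. The labels name no further treatment. Separate mice are not stated for the tumors of a group, and the spread given here may be partly technical. The tumors of each class were chosen by a measured value, the mean log2 level of Cd3e, Cd3d and Cd3g, which encode signalling chains of the T cell receptor complex. Levels are log2 CPM, the log2 of a gene's reads scaled to a common library size, and a difference of 1 is a doubling.

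The ordering put IK replicate 2 and SC replicates 1 to 5 among the T-cell-rich tumors, and SC replicate 6 and IK replicates 1, 3, 4, 5 and 6 among the T-cell-poor ones. The mean of the 3 genes was 3.20 in IK replicate 2, 3.12 in SC replicate 5, 2.77 in SC replicate 3, 2.34 in SC replicate 1, 2.32 in SC replicate 4 and 1.86 in SC replicate 2. It was 1.13 in IK replicate 1, 1.09 in IK replicate 5, 0.64 in SC replicate 6, 0.17 in IK replicate 4, 0.09 in IK replicate 3 and -0.04 in IK replicate 6. The tumors at the boundary, SC replicate 2 and IK replicate 1, were 0.73 log2 units apart, less than the span within either class. These values chose the classes and are given without a test. T-cell-rich tumors made up 5 of 6 SC tumors and 1 of 6 IK tumors (two-sided Fisher's exact test, p = 0.08). Because the classes come from the same libraries as every other gene, the differences between classes below are descriptions without p-values. A gene is counted as separated when the lowest tumor of one class lay above the highest of the other.

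**Figure D1:**
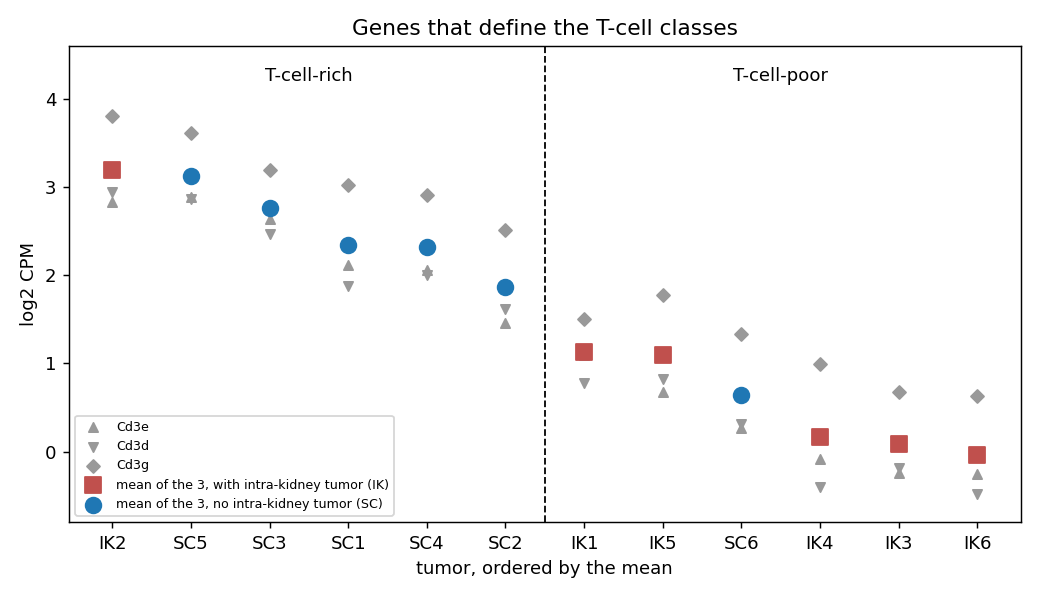
Level of Cd3e, Cd3d and Cd3g (grey) and their mean (coloured by labelled group) in each tumor, in log2 CPM, with tumors ordered by the mean along the horizontal axis. The dashed line is the class boundary, between 1.86 in SC replicate 2 and 1.13 in IK replicate 1.

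T cells recognise antigen as peptides held by MHC molecules. Activated T cells and natural killer cells release interferon gamma, which induces the transcription factor IRF1, the transactivators NLRC5 and CIITA, antigen presentation genes, guanylate-binding proteins and the chemokines CXCL9, CXCL10 and CXCL11. Those chemokines attract further T cells through the receptor CXCR3. In a tumor these genes are used by tumor cells, macrophages, dendritic cells and endothelium alike. Cells short of oxygen use a separate programme, in which HIF factors raise glucose transport and glycolysis.

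Libraries held 53312559 to 66142468 recovered reads, with 60266133 ± 3204609 in T-cell-rich and 59011921 ± 4742798 in T-cell-poor tumors (SD, n = 6 each). Of the other T cell lineage genes kept, 17 of 18 were separated in the direction of the 3 defining genes (all but Themis), with a median difference of 2.19. Of the cytotoxic and natural killer genes kept, 15 of 15 were separated, with a median of 2.79. In these lists 1 and 6 genes passed the filter on low values through the T-cell-rich tumors alone and so had to differ, so the counts are no support for the class names. Neither list is described further.

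Separated genes were numerous in both directions, with larger differences upward than downward. Of 14008 genes kept, 1013 (7.23%) were separated with higher values in T-cell-rich tumors and 615 (4.39%) with lower values. Cd3e, Cd3d and Cd3g, the genes that chose the classes, are counted among the higher ones. A fixed list of T and NK genes accounted for 93 of the higher ones and for 0 of the lower ones. Differences of at least 1 log2 unit were found in 310 of the separated higher genes (2.21% of all genes) and in 1 of the lower ones (0.00714%). Outside the T and NK list, 221 of the higher genes differed by at least that much. The median size was 0.70 for the higher genes, T and NK genes included, and -0.19 for the lower genes. The 2 sets also differed in abundance, with median levels of 4.05 log2 CPM for the higher and 6.07 for the lower genes, against 4.87 over all genes. The balance of the counts depended on scaling, with 888 higher and 1045 lower when each library was centred on its median gene and 838 and 977 with quantile scaling. Among the higher genes, 36 were below 0 log2 CPM in every T-cell-poor tumor and passed the filter through the T-cell-rich tumors alone. Tumors are mixtures, so a lower level can come from fewer cells of a type or from less RNA per cell, and these cannot be told apart here.

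Of the 12 largest separated differences upward outside the T and NK list, Tgtp1 is on the interferon list, Jchain and Igkc are on the B and plasma cell list, and Cxcl9 is on the chemokine list. Sidt1, Izumo1r and Pglyrp2 were below the filter in every T-cell-poor tumor and had to differ. Ubd, a ubiquitin-like modifier induced by inflammatory cytokines, ran from 2.10 through a median of 3.27 to 4.18 log2 CPM in T-cell-rich tumors and from -2.96 through -1.39 to 0.79 in T-cell-poor ones. Its class means differed by 4.49, the largest of these genes, and its lowest library held 7 reads. Next came Jchain (4.03) and Igkc (3.96), which encode the joining chain and the kappa constant region of antibodies, as class differences in log2 units. The chemokine gene Cxcl9 differed by 3.25, Sidt1 by 3.06, and the interferon-inducible GTPase genes Tgtp1 and Tgtp2 by 2.87 and 2.85. Tgtp1 and Tgtp2 are near-identical copies, so their reads may be split or shared between them and they do not count as separate results. The serine protease inhibitors Serpina3g and Serpina3f differed by 2.83 and 2.75. Gm4841 (2.79) and Pglyrp2, a peptidoglycan amidase (2.75, lowest library 3 reads), complete the set with Izumo1r (2.82), a folate receptor family member that regulatory T cells are known to carry.

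Interferon response genes were higher in T-cell-rich tumors almost throughout the list. Of 31 members kept, 31 had higher means in T-cell-rich tumors, against 44.6% of all genes, and 28 of them were separated, against 7.23% of all genes. The median difference over members was 1.30, a 2.46-fold higher level, against -0.02 over all genes. The mean of the list was 5.95 to 6.92 log2 CPM in T-cell-rich tumors (median 6.22) and 4.70 to 5.29 in T-cell-poor ones (median 5.0), with no overlap.

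Irf1, a transcription factor induced by interferon gamma, ran from 6.72 through 7.01 to 7.51 log2 CPM in T-cell-rich tumors and from 5.77 through 6.01 to 6.37 in T-cell-poor ones. The whole T-cell-poor range of Irf1 thus lay under the T-cell-rich range, and the class means differed by 1.02. Among the interferon-induced GTPases, Gbp4 spanned 5.61 to 7.09 in T-cell-rich and 3.05 to 4.29 in T-cell-poor tumors, a class difference of 2.68. Gbp2 differed by 2.14 and Iigp1 by 2.62, and both were separated. Cd274, which encodes the checkpoint ligand PD-L1, was separated by less, with 6.21 to 6.59 against 5.72 to 6.20 and a difference of 0.51.

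Promoter sequence was examined for interferon genes of the named set because all were separated. Of Tgtp1, Gbp4, Iigp1, Gbp2, Irf1 and Cd274, the RefSeq table for GRCm38.p6 held Tgtp1, Gbp2, Irf1 and Cd274. The windows run from 250 bases before to 50 bases after the annotated start. Searched on both strands were the gamma-activated site TTCNNNGAA and the interferon-stimulated element, which is GAAA, any 2 bases and GAAA again (TTTC, any 2 bases and TTTC on the other strand). They occurred in 8.29% and 3.43% of 32817 promoter windows of the same length. Only windows with a match could be shown, those of the largest differences first, so the presence of a match in them is no result. Shown are the windows of Tgtp1 (chr11:48992197-48992496, minus strand) and Gbp2 (chr3:142620413-142620712, plus strand), 5′ to 3′, with the matches in capitals.
Tgtp1: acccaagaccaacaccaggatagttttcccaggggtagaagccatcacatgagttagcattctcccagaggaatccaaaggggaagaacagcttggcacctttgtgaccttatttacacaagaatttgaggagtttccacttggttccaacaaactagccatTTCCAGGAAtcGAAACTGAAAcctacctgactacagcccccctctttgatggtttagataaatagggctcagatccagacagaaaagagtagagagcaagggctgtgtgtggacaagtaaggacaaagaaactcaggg
Gbp2: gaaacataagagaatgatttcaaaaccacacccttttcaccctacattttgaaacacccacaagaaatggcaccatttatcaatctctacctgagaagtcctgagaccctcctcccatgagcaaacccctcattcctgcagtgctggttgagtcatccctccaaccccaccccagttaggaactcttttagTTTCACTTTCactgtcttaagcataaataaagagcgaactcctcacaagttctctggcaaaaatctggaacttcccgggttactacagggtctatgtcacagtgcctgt
In Tgtp1 the gamma-activated match began 88 bases and the interferon-stimulated match 77 bases before the start. In Gbp2 an interferon-stimulated match on the opposite strand began 59 bases before the start. Irf1 had a gamma-activated match 90 bases before the start of 1 of its annotated windows, and Cd274 had no match to either set of letters. A match describes the letters and was not tested for binding.

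**Figure D2:**
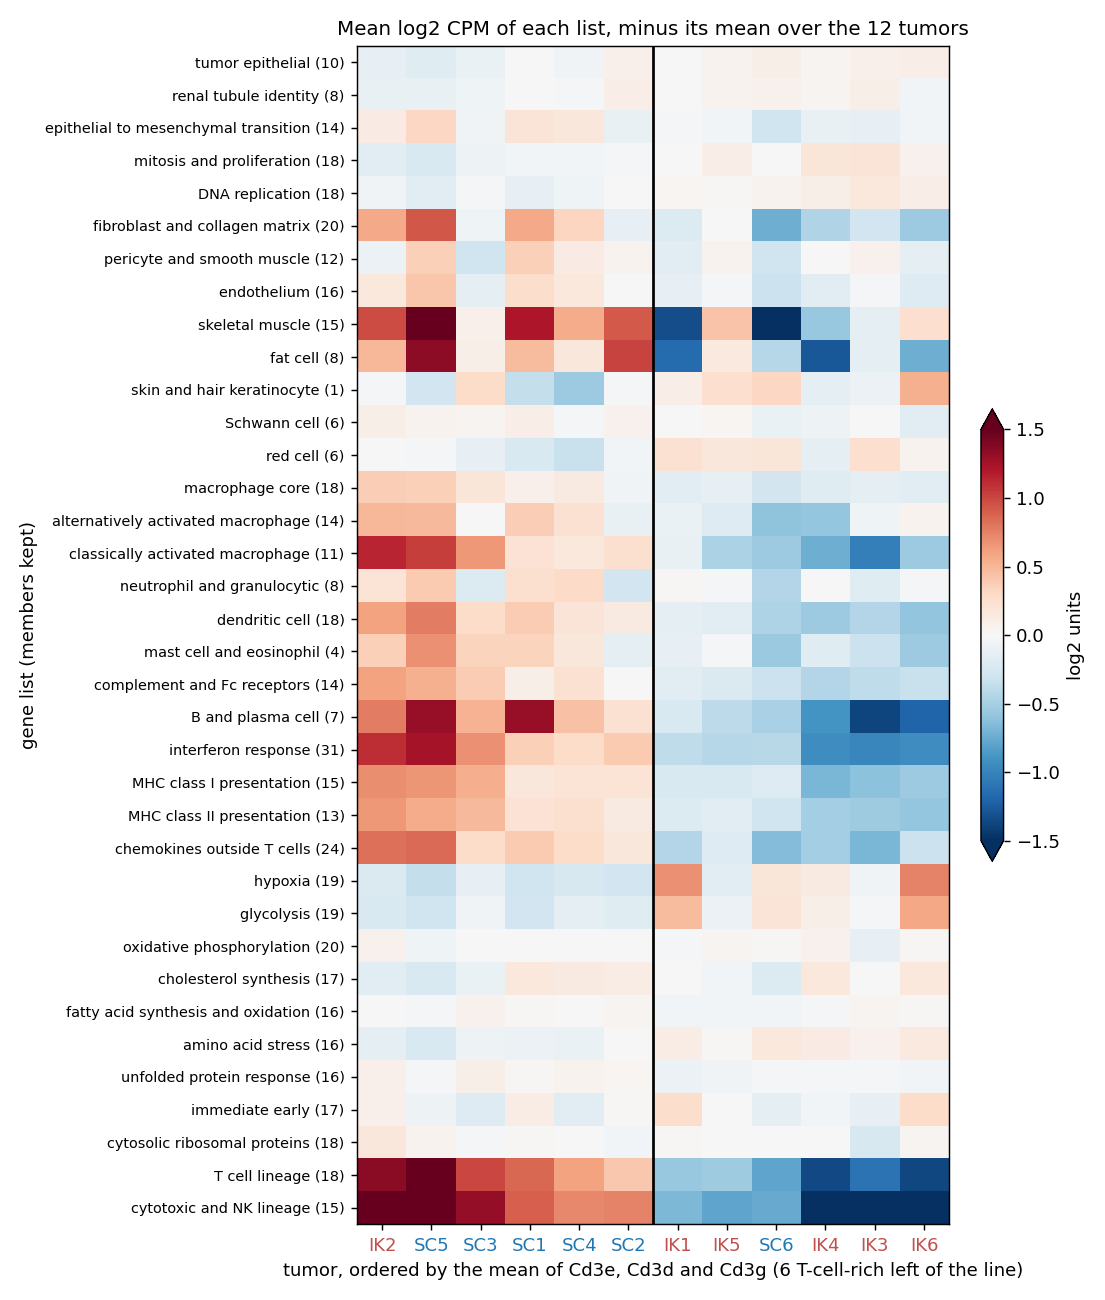
Mean log2 CPM of each gene list in each tumor, minus that list's mean over the 12 tumors, with tumors ordered by the mean of Cd3e, Cd3d and Cd3g and the number of members kept in brackets. Interferon response, MHC and dendritic cell lists are above their mean in the 6 T-cell-rich tumors left of the line, and hypoxia and glycolysis are highest in IK replicates 1 and 6.

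Antigen presentation followed. All 15 kept genes of MHC class I presentation were separated and higher in T-cell-rich tumors, with a median difference of 0.76, against 7.23% of all genes separated upward. Nlrc5, the class I transactivator, spanned 6.27 to 7.11 log2 CPM (median 6.64) against 4.92 to 6.02 (median 5.47). Its T-cell-poor maximum belonged to SC replicate 6, the SC tumor of that class. Tap1, a subunit of the peptide transporter, differed by 1.23, and H2-Q7, a nonclassical class I gene with close copies whose reads may be shared, by 1.26. The classical heavy chain gene H2-K1, which was already abundant, had a smaller difference of 0.62 (10.60 to 10.96 against 9.79 to 10.48).

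For MHC class II presentation 10 of 13 genes were separated and higher, against 7.23% of all genes, with a median difference of 0.98. Ciita, the class II transactivator, spanned 6.42 to 7.03 log2 CPM against 5.39 to 5.95, a difference of 0.99. The class II chain genes H2-Aa (1.19), H2-Eb1 (1.19) and H2-Ab1 (1.04) differed by similar amounts. H2-Aa ran from 9.32 through 9.72 to 10.20 in T-cell-rich tumors and from 8.27 through 8.54 to 8.93 in T-cell-poor tumors. H2-Ob, a chain of the DO molecule that B cells and dendritic cells use, differed by 1.10.

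Chemokine genes outside T cells were not uniformly higher. Of 24 kept, 21 had higher means and 7 were separated, against 44.6% and 7.23% of all genes, with a median difference of 0.54. Cxcl9 spanned 6.32 to 8.10 log2 CPM (median 7.32) in T-cell-rich and 2.90 to 5.10 (median 3.91) in T-cell-poor tumors, a 9.51-fold difference of class means. The other CXCR3 ligands, Cxcl11 (2.67) and Cxcl10 (2.17), were separated as well. Cxcl13, which attracts B cells, spanned 2.32 to 4.10 against -0.02 to 1.24 and differed by 2.54. Ccl2, the main attractant of monocytes, overlapped between classes (7.55 to 8.18 against 7.35 to 7.90).

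B and plasma cell genes were few above the filter, 7 of 14. Of these 7, 5 had higher means, against 44.6% of all genes, and 3 were separated and higher, against 7.23%. The separated ones were the antibody genes Jchain, Igkc and Ighm (Ighm by 1.49). The others overlapped, with differences of 1.33 for Fcrla, 0.09 for Cd79a, -0.04 for Blnk and -0.17 for Pax5. Jchain spanned 1.27 to 4.78 log2 CPM in T-cell-rich and -2.35 to 0.74 in T-cell-poor tumors, with at least 11 reads in each library. Immunoglobulin genes share similar segments, so how reads were counted among them is uncertain.

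Of 18 dendritic cell genes, 17 had higher means in T-cell-rich tumors and 9 were separated, against 44.6% and 7.23% of all genes. The median difference was 0.82, and 1 of the separated genes, Itgae, is also on the T and NK list. Clec9a and Xcr1, markers of the dendritic cells that cross-present antigen to CD8 T cells, spanned 2.54 to 3.23 against 1.22 to 2.03 and 3.31 to 3.88 against 1.91 to 2.73 log2 CPM. Siglech, a marker of plasmacytoid dendritic cells, differed by 1.92.

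In the core macrophage list 17 of 18 members had higher means and 8 were separated, again against 44.6% and 7.23% of all genes, with a median difference of 0.38. Mpeg1, a pore-forming protein of phagocytes, spanned 8.46 to 9.07 log2 CPM against 7.67 to 8.19, and Aif1 spanned 5.61 to 6.46 against 5.05 to 5.24. Adgre1, an adhesion receptor used as a macrophage marker, differed by 0.48 and was separated, while Csf1r, the receptor for the macrophage growth factor, differed by 0.29 and overlapped.

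Markers of alternative activation did not move as a block. Of 14 kept, 9 had higher means and 3 were separated, against 44.6% and 7.23% of all genes. Mrc1, the mannose receptor of alternatively activated macrophages, differed by -0.04 (8.49 to 8.75 against 8.46 to 8.99), a sign that turned within SC and without IK replicate 3. Clec10a (1.04) and Cd209a (0.86), lectins also found on dendritic cells, were separated and higher. Trem2 differed by 0.13 and was separated only barely, with 5.088 to 5.235 against 4.811 to 5.087. Retnla, a secreted marker of alternative activation picked out here after its values were seen, had the largest difference of that list (3.68) but overlapped, with 0.09 to 3.20 in T-cell-rich and -6.77 to 0.98 in T-cell-poor tumors. The lowest Retnla value, in IK replicate 4, is that of 0 reads, so the size of this difference depends on the 0.5 reads added before the log. Nos2, the inducible nitric oxide synthase, overlapped widely, with 3.25 to 4.79 in T-cell-rich and 2.32 to 5.09 in T-cell-poor tumors. The classically activated list, to which Nos2 belongs, was higher more evenly. Of 11 kept, 10 had higher means and 5 were separated, with a median of 0.57. The list mean was 3.66 to 4.64 log2 CPM in T-cell-rich and 2.48 to 3.40 in T-cell-poor tumors, with no overlap. Its 3 largest differences were Cxcl9, Cxcl11 and Cxcl10, which are also on the chemokine list. Fpr2 and Cd40 were the other separated genes. Arg1 was not among the genes kept.

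Complement and Fc receptor genes had higher means in 12 of 14 cases and were separated in 8 (44.6% and 7.23% of all genes), with a median of 0.44. Serping1, the C1 inhibitor, spanned 6.66 to 8.29 log2 CPM (median 7.81) against 4.65 to 6.29 (median 5.40), a difference of 2.11. The activating Fc receptor gene Fcgr4 differed by 1.83 and complement factor B, Cfb, by 1.36. Fcgr1, a relative of Fcgr4 that stands on the core macrophage list instead, differed by 0.72. Of 8 neutrophil genes 5 had higher means, with a median of 0.23, and 1 was separated, Csf3r (0.70), the G-CSF receptor. These shares are near the 44.6% and 7.23% of all genes. The neutrophil alarmin gene S100a8 overlapped (0.20 to 1.81 against 0.06 to 0.96), and Ly6g, Mpo and Elane were not among the genes kept. Of the mast cell and eosinophil markers 4 of 14 were kept, and of these Hdc, the histamine-forming enzyme, was separated with a difference of 1.12.

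**Figure D3:**
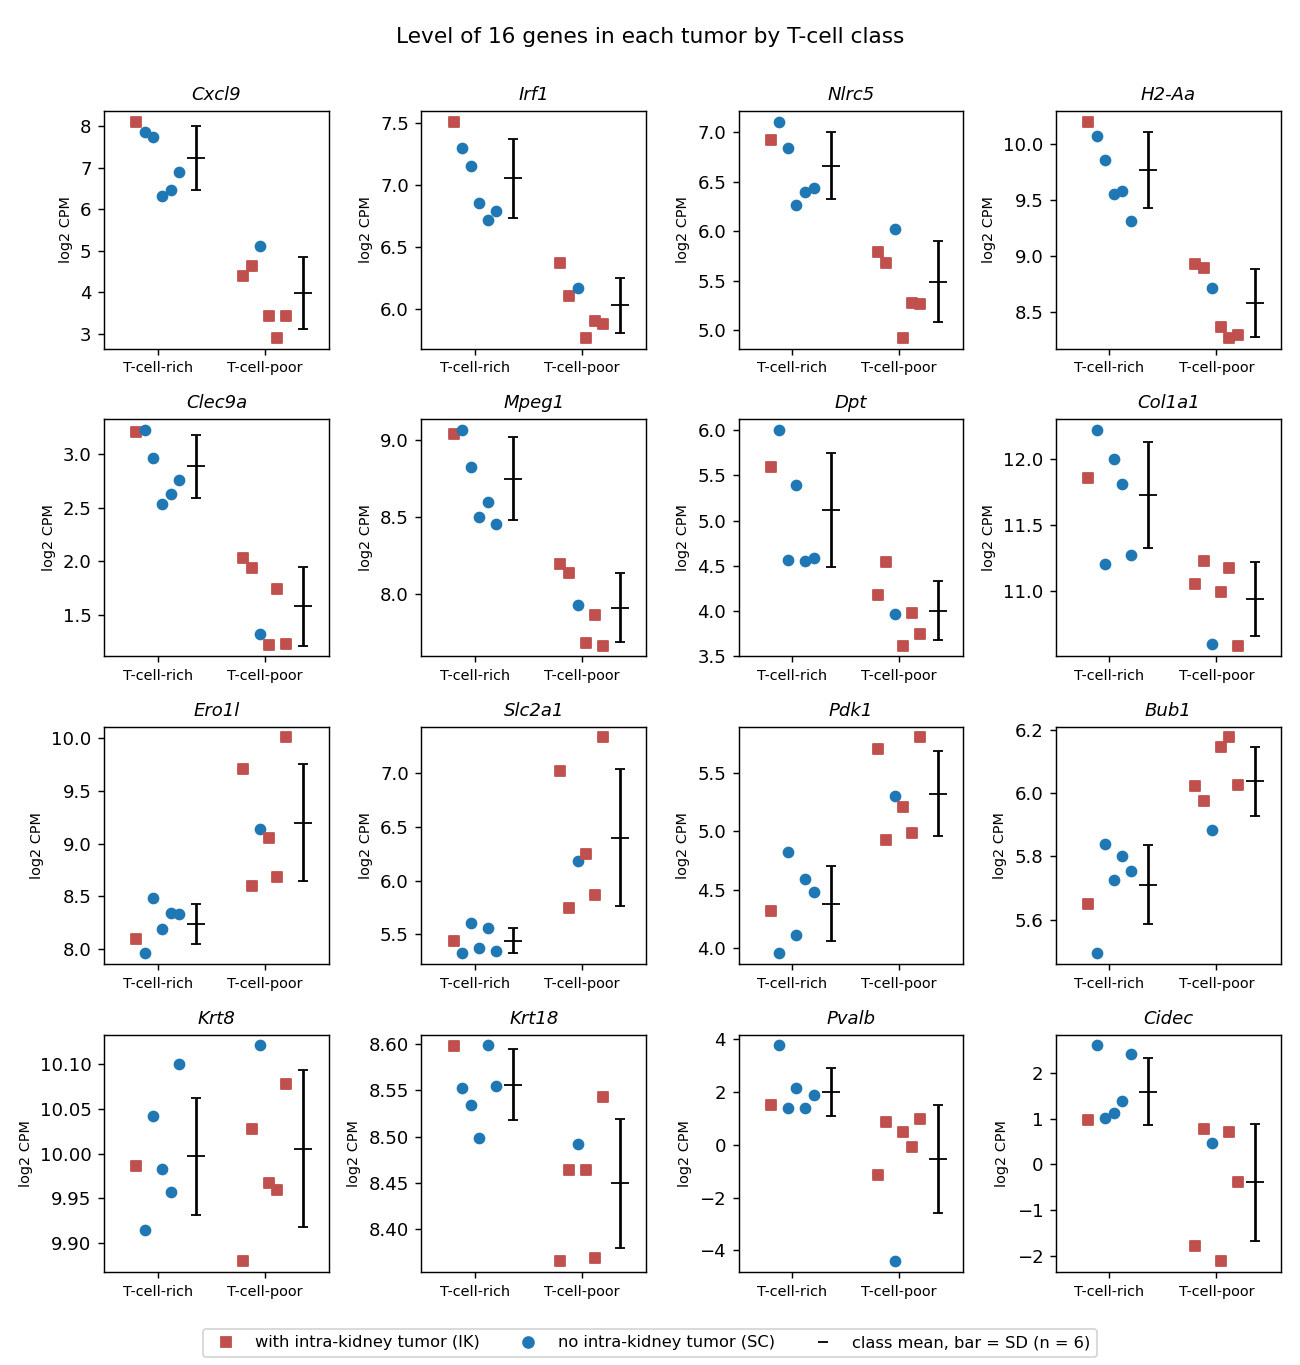
Level of 16 genes in each tumor in log2 CPM, by T-cell class, with squares for IK and circles for SC tumors and class mean ± SD (n = 6) beside the points. Irf1, with 6.72 to 7.51 against 5.77 to 6.37, has no overlap, and Krt8 shows a difference of -0.01.

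The fibroblast and collagen matrix list had higher means in 20 of 20 members, against 44.6% of all genes, with a median difference of 0.70. The genes separated were 2, Dpt (1.12) and Thy1 (0.71), a share near the 7.23% of all genes. Thy1 is made by T cells as well as by fibroblasts, and stands on the T and NK list. Col1a1 spanned 11.21 to 12.22 log2 CPM against 10.59 to 11.23 and Col3a1 11.23 to 12.48 against 10.53 to 11.42, so both overlapped at the edge. By the mean of the list, SC replicates 2 and 3 were lowest among the T-cell-rich tumors (7.31 and 7.38) and lay under IK replicate 5 (7.45), the highest T-cell-poor tumor. Tgfbi, a matrix protein induced by TGF-beta, was separated (7.71 to 8.15 against 7.45 to 7.65, difference 0.40). It is not on the matrix list but on the epithelial to mesenchymal transition list. There it was the 1 gene of 14 separated, a share near the 7.23% of all genes. In that list 11 of 14 had higher means, against 44.6% of all genes, with a median of 0.12. Vim, the intermediate filament of mesenchymal cells and of Renca cells, overlapped with a difference of 0.08, which was -0.03 under quantile scaling.

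Of 16 endothelial genes 15 had higher means, against 44.6% of all genes, with a median of 0.28. Eng (0.26), the TGF-beta coreceptor of endothelium, was the 1 gene separated, a share no higher than the 7.23% of all genes. Pecam1, the endothelial adhesion gene, overlapped (5.78 to 6.41 against 5.42 to 5.88). Pericyte and smooth muscle genes had a median of 0.24, which was -0.021 within IK alone, with 0 of 12 separated, and Acta2 overlapped (6.20 to 7.11 against 6.01 to 6.66).

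Genes of muscle and fat around the tumor also had higher means in T-cell-rich tumors, but the means of both lists overlapped between the classes. Skeletal muscle genes were higher in 15 of 15 members, against 44.6% of all genes, with a median difference of 1.91. Only 1 of the 15, Pvalb, was separated, a share no higher than the 7.23% of all genes. Fat cell genes were higher in 7 of 8 members with a median of 1.34, and 2 of the 8 were separated. The muscle list mean was 2.72 to 4.82 log2 CPM in T-cell-rich tumors and -1.91 to 3.08 in T-cell-poor ones, where the lowest value was that of SC replicate 6. Without that tumor the median difference was 1.27. The parvalbumin gene Pvalb, separated with a difference of 2.56, had 2 reads in its lowest library, and Acta1 (5.50 to 7.20 against 0.36 to 5.90) overlapped. Cidec, a lipid droplet protein of fat cells, was separated (0.99 to 2.62 against -2.13 to 0.77), as was Lpl (0.83). The fatty acid transporter gene Cd36 (1.17) was separated too, but stands on the fatty acid list, where it was the only 1 of 16. Of the skin keratinocyte markers only Krt17 was kept (1 of 14) and Krt5 was not. Red cell genes were lower in 5 of 6 members, against 55.4% of all genes, with a median of -0.32 and 0 separated. Whether the amount of muscle and fat taken with a tumor plays a part in the immune and matrix differences was not tested. The Schwann cell list had a median of -0.01, and its only separated gene was Mbp (0.89), a myelin gene that is also transcribed in blood cells.

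Markers of the tumor cells themselves differed little. The keratin genes Krt8 and Krt18 differed by -0.01 and 0.11 and overlapped, as did Cdh16, a kidney cadherin (-0.03). The signs of Krt8 and Cdh16 turned when single tumors were left out. The epithelial list had a median of -0.12, with 9 of 10 members lower, against 55.4% of all genes. Its list mean was 5.24 to 5.51 log2 CPM in T-cell-rich tumors and 5.44 to 5.53 in T-cell-poor ones. Elf3, an epithelial transcription factor, had the largest difference, -0.34, and overlapped. In the renal tubule list (median -0.07) the water channel gene Aqp2 was separated, with 1.54 to 2.11 against 2.12 to 2.55.

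Cell cycle genes had slightly lower means in T-cell-rich tumors. Of 18 mitosis genes 18 had lower means, against 55.4% of all genes, and 8 were separated, against 4.39%. Their median was -0.18, with -0.27 within IK and -0.079 within SC. Bub1, a kinase of the spindle checkpoint, spanned 5.49 to 5.84 log2 CPM against 5.88 to 6.18, and Ube2c and Ccna2 differed by -0.26 and -0.25. Of 18 DNA replication genes 17 had lower means, with a median of -0.15, and 5 were separated (4.39% of all genes), led by the ribonucleotide reductase gene Rrm2 (-0.23) and the helicase subunit gene Mcm6 (-0.22). Mki67 (-0.20) and Cdk1 (-0.20) overlapped. These differences are of the order of the -0.12 of the epithelial list. Whether they follow the share of tumor cells in the sample was not tested.

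Of the 12 largest separated differences downward, Ero1l (-0.96), Slc2a1 (-0.96) and Ndrg1 (-0.52) are on the hypoxia list and Pdk1 (-0.94) is on the glycolysis list. Ero1l, the oxidase that makes disulfide bonds in the endoplasmic reticulum, ran from 7.96 through 8.27 to 8.48 log2 CPM in T-cell-rich tumors and from 8.60 through 9.10 to 10.01 in T-cell-poor tumors. Slc2a1, the glucose transporter GLUT1, spanned 5.32 to 5.61 against 5.75 to 7.34. T-cell-rich tumors lay close together in Slc2a1, while the T-cell-poor tumors were spread over more than 1 log2 unit. Pdk1, a kinase that inhibits pyruvate dehydrogenase, spanned 3.96 to 4.83 against 4.92 to 5.80.

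In the whole hypoxia list 16 of 19 genes had lower means in T-cell-rich tumors and 5 were separated, against 55.4% and 4.39% of all genes, with a median of -0.45. Car9 (0.30), Pfkfb4 (0.19) and Pfkfb3 (0.04) had higher means and overlapped. The list mean was 5.43 to 5.66 in T-cell-rich and 5.63 to 6.53 in T-cell-poor tumors. Bnip3 (-1.46), a mitophagy gene, and Adm (-1.44), a vasodilator peptide gene, had the largest differences of the list but overlapped at the edge. Bnip3 spanned 5.0 to 6.08 in T-cell-rich and 6.06 to 7.98 in T-cell-poor tumors, and Adm 1.42 to 2.11 and 2.07 to 5.0. IK replicates 1 and 6 had the highest means of the list (6.48 and 6.53), while IK replicate 5 (5.63) lay within the T-cell-rich range. Vegfa, the vessel growth factor, overlapped too (6.83 to 7.15 against 7.08 to 7.63). Of 19 glycolysis genes 19 had lower means, with a median of -0.36, and Pdk1, Pgam1 (-0.48) and the lactate transporter gene Slc16a1 (-0.33) were separated. Pgam1 has processed copies in the table that may share its reads. Ldha, lactate dehydrogenase A, differed by -0.50 and overlapped.

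Of Ero1l, Slc2a1 and Ndrg1, the separated hypoxia genes of the named set, Ero1l (listed as Ero1a) and Slc2a1 had an entry in the RefSeq promoter table. They are shown because they had the largest separated differences of the hypoxia list and held a match to the letters sought. Since a match was a condition for being shown, its presence in both is no result. The windows are chr14:45318523-45318822 (minus strand) and chr4:119108495-119108794 (plus strand) in GRCm38.p6, given 5′ to 3′. Capitals mark ACGTG, the core letters of the hypoxia response element, or CACGT on the other strand.
Ero1l: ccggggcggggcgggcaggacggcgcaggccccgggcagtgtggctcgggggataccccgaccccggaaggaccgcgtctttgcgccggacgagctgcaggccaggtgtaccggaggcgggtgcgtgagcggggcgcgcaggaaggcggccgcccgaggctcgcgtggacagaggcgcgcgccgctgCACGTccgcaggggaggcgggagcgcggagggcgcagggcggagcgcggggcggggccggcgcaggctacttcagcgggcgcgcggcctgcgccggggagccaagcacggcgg
Slc2a1: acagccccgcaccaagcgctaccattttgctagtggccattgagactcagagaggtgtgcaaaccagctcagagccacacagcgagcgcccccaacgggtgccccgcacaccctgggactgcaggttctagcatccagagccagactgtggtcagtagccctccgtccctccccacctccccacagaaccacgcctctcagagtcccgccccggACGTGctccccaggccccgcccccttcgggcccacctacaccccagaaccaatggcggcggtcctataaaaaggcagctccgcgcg
The match began 63 bases before the start of Ero1l and 36 bases before the start of Slc2a1. So short a motif was present in 19.6% of the 32817 windows.

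The remaining genes of the downward set have other roles. Gm16439 differed most (-1.70) from a low level, with -0.97 to 0.27 in T-cell-rich and 0.38 to 2.41 log2 CPM in T-cell-poor tumors. Myo7b, a myosin of epithelial microvilli, spanned 1.79 to 2.88 against 3.22 to 3.39 (difference -0.85), so the T-cell-poor tumors were closely alike. Syne4 (-0.76), Zan (-0.58), Lonrf3 (-0.56), the phosphoglucomutase gene Pgm1 (-0.55), the growth arrest gene Gadd45a (-0.54) and the RNA-binding protein gene Mex3d (-0.51) completed the set.

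Other metabolic lists had small differences. All 16 amino acid stress genes had lower means in T-cell-rich tumors, against 55.4% of all genes, with a median of -0.18. Of them 5 were separated, against 4.39% of all genes, including the stress-induced pseudokinase gene Trib3 (-0.48), the factor Atf4 (-0.36) and Cth (-0.29). Asns, asparagine synthetase, differed by only -0.07. Unfolded protein response genes went the other way, with 12 of 16 higher, against 44.6% of all genes, at a median of 0.08. Separated were 3 of 16, against 7.23% of all genes. These were Manf (0.24), Pdia4 (0.23) and Calr (0.22), which encode proteins of the endoplasmic reticulum. Oxidative phosphorylation had a median of -0.01 (0.01 under quantile scaling) with 9 of 20 higher, near the 44.6% of all genes. Only Ndufs1 (-0.14) was separated there. Fatty acid genes had a median of -0.01. Cholesterol synthesis had one of -0.05 with 0 of 17 separated. Immediate early genes, which respond to handling, had a median of -0.07, with Klf4 (-0.34) separated, and ribosomal protein genes one of 0.05 with 0 of 18 separated.

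Since the classes overlap with the labels, each difference was also taken within the labelled groups, where only 1 tumor stood in the rarer class. Within IK this is replicate 2 minus the mean of the other 5, and within SC the mean of replicates 1 to 5 minus replicate 6. The interferon list had medians of 1.64 within IK and 1.07 within SC. Those of MHC class I were 1.10 and 0.54, of MHC class II 1.33 and 0.72, of dendritic cells 1.16 and 0.75, and of the macrophage core 0.47 and 0.41. Hypoxia (-0.49 and -0.44), glycolysis (-0.38 and -0.36), amino acid stress (-0.24 and -0.19) and the matrix list (0.79 and 0.88) had medians of like size in both. For a separated gene the direction within each group is fixed by the separation, so it adds the size alone. Skeletal muscle differed by 1.28 within IK and 5.35 within SC, where 1 tumor sets the value. Cholesterol synthesis went in opposite directions, with -0.25 within IK and 0.22 within SC.

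**Figure D4:**
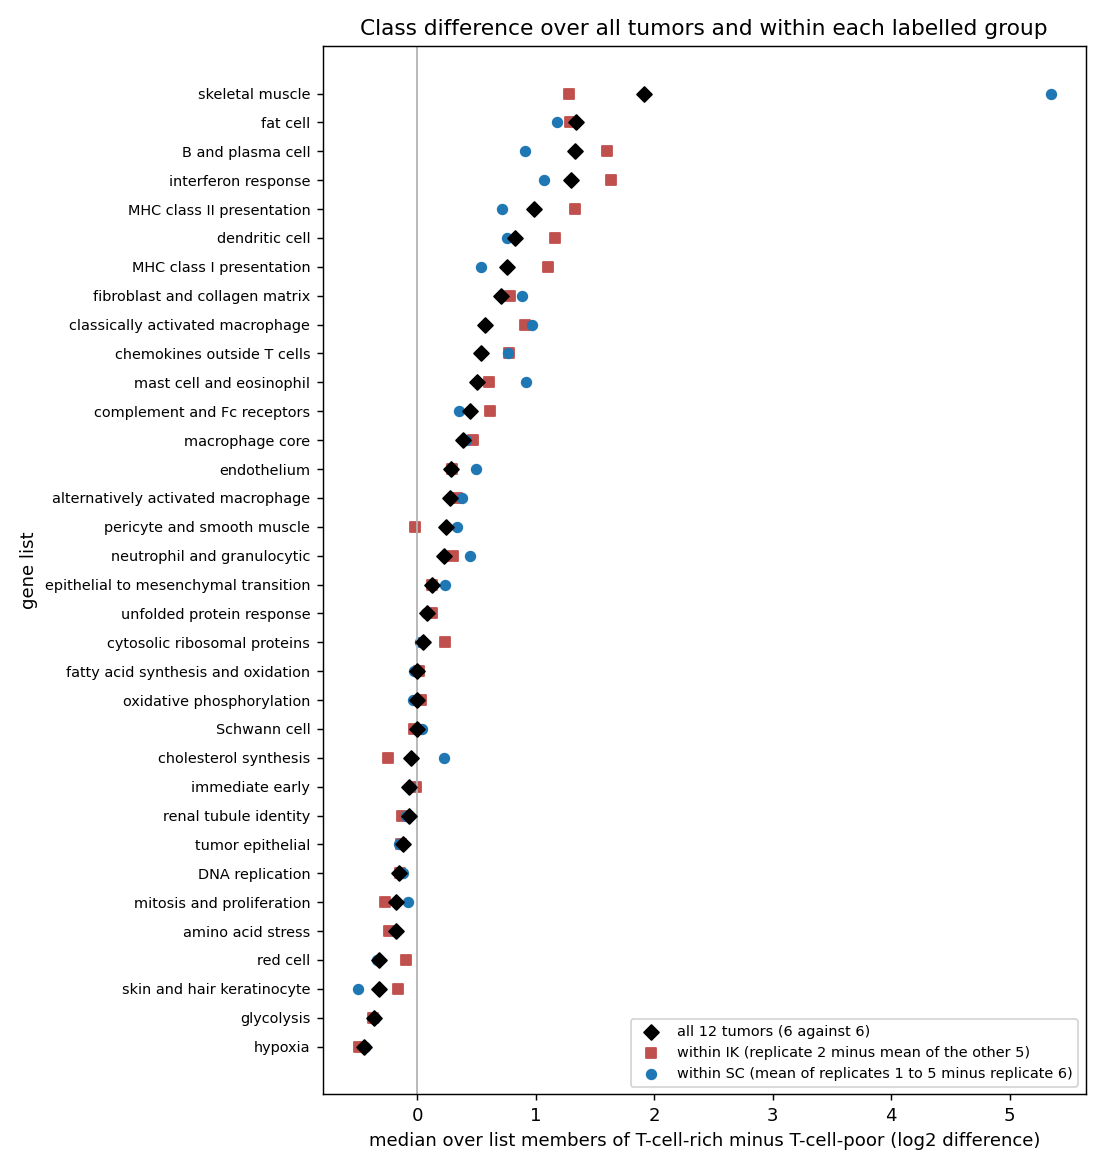
Median over list members of T-cell-rich minus T-cell-poor, as log2 differences, over all 12 tumors (diamonds), within IK (squares) and within SC (circles). The interferon list lies at 1.30, 1.64 and 1.07, and skeletal muscle within SC stands out at 5.35.

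The labelled comparison is independent of the rule and was tested. By limma, 0 of 14008 genes (0%) passed an adjusted p of 0.05 between IK and SC tumors, and 1608 had an unadjusted p below 0.05. Without IK replicate 2 there were 25 higher and 146 lower genes, and with array weights 134 and 411. Between the labelled groups 39 genes (0.278%) were separated with higher and 28 (0.2%) with lower values in IK. For Cxcl9 the IK minus SC difference was -2.25 (limma, adjusted p = 0.43) and for Slc2a1 0.71 (limma, adjusted p = 0.43).

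With the T-cell class in the model, the group coefficient compares IK with SC tumors of the same class. Cxcl9 then differed by -0.15 (limma, adjusted p = 0.96), Slc2a1 by 0.13 (adjusted p = 0.94) and Col1a1 by 0.28 (adjusted p = 0.79). These coefficients rest on IK replicate 2 among T-cell-rich and SC replicate 6 among T-cell-poor tumors, and a p above the threshold does not show that the groups are alike. The class was made from the same libraries and separates Cxcl9 and Slc2a1, so fitting it takes up much of their variation. Their smaller coefficients are therefore no test of whether T cell content accounts for the difference between the groups. In that fit 1 gene (0.00714%) passed, Cilp, a cartilage matrix protein gene, higher in IK by 1.72 (SE 0.22, limma, adjusted p = 0.0466). Its levels were 3.68 to 4.95 log2 CPM in T-cell-rich tumors and 1.496 to 4.19 in T-cell-poor ones. That call was lost in 10 of the 12 fits that left out 1 tumor, and without IK replicate 2 the count was 25.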

How the data were processed

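RNA from 12 whole tumors was sequenced. The deposited file gives log2 values for 14496 genes. Tools listed in the submitters' processing notes are TopHat 1.4.1, HTSeq, CASAVA 1.8.2 and limma, with mm9 as the build. Strand handling and the annotation release are not given in the sources used here. The deposited log2 values had the form log2 CPM with 0.5 reads added, since whole reads within 0.001 were recovered for 100% of values. This addition understates differences of genes with few reads. Symbols from the reference table matched 14004 gene IDs.

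Genes with a value of at least 0 in at least 6 tumors were kept (14008). Tumors were ranked by the mean of Cd3e, Cd3d and Cd3g, and class differences are differences of class means. The labelled groups were compared with limma 3.58.1 (R 4.3.3) with trend and Benjamini-Hochberg adjustment, with and without the T-cell class, and their p-values cover no more than the variation among the tumors sampled. Scripts were tested on simulated data. Alternatives were other scores, scalings, filters and models, and leaving out tumors.

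Named genes are the 12 largest separated differences in each direction outside the T and NK list, up to 3 separated genes of each of the other lists (or the 1 largest difference), and a fixed set given whatever its result. Of the genes so chosen, 2 are not reported here. The classes and the 36 lists were chosen with earlier results of these data known. Promoter windows are from RefSeq on GRCm38.p6, another build than that of the deposited table.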

Additional observations from a re-analysis of the deposited data

Results flagged for a closer look

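Within the 6 tumors of each labelled group, the mean of each gene list and the level of each named gene were examined for a single tumor far from the rest, by Dixon's test at the 95% level on the gap to the nearest tumor over the whole range. Of 294 groups of values examined, 54 passed. Chance alone flags about 1 in 20 such groups when values are independent and picked without regard to the classes. Here the values share their libraries and genes, and many named genes were picked because they were separated, so that rate is no reference. IK replicate 2, the IK tumor of the T-cell-rich class, gave 39 of the 54. SC replicate 6, the SC tumor of the T-cell-poor class, gave 12, and SC replicate 5 gave 3. The class rule set IK replicate 2 and SC replicate 6 apart from their labelled groups. For every separated gene or list they are the extreme tumors of those groups by construction. Their standing apart in T cell, interferon and all other separated genes is therefore not independent of the rule. No cause was tested.

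IK replicate 2 lay above the other IK tumors in the mean log2 CPM of these lists: macrophage core (7.46), dendritic cell (4.85), complement and Fc receptors (6.85), interferon response (6.79), MHC class I presentation (8.23), MHC class II presentation (8.04), chemokines outside T cells (4.43), T cell lineage (3.08) and cytotoxic and NK lineage (2.86). In single genes it lay above them in log2 CPM for Ubd (4.18), Cxcl9 (8.10), Tgtp1 (8.48), Tgtp2 (8.55), Serpina3g (6.32), Gm4841 (5.35), Serpina3f (4.15), Mbp (3.57), Aif1 (6.46), Fcgr1 (6.61), Clec10a (4.68), Cxcl11 (4.15), Cxcl10 (6.42) and Csf3r (4.995). The same held for Fcgr4 (6.14), Cfb (3.70), Gbp4 (6.99), Iigp1 (9.69), Tap1 (8.11), H2-Eb1 (10.07), H2-Aa (10.20), Cxcl13 (3.89), Calr (10.63), Adgre1 (7.52), Irf1 (7.51), Ciita (7.03), H2-Ab1 (9.83) and Gbp2 (8.63). It lay below the other IK tumors in Myo7b (2.34) and Mcm6 (8.25).

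SC replicate 6 lay below the other SC tumors in the mean of the skeletal muscle (-1.91) list and in log2 CPM of Pvalb (-4.42), Trem2 (4.81), Clec9a (1.32), Xcr1 (2.40), Manf (6.96), Pdia4 (7.95), Calr (10.35) and Acta1 (0.36). It lay above them in Slc2a1 (6.19), Atf4 (8.94) and Klf4 (5.76). SC replicate 5 lay below the other SC tumors in the means of the lists mitosis and proliferation (6.29) and oxidative phosphorylation (6.98) and in log2 CPM of Ccna2 (6.77).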

How the results depend on the processing

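The 6 tumors of each class were the same when Cd3e, Cd3d or Cd3g alone, the T cell lineage list without them, quantile scaling or centring made the score. The single genes are the values that the rule averaged, and 1 lineage gene passed the filter through the T-cell-rich tumors alone. The unchanged classes are therefore no independent support for the rule. Counts of separated genes followed the scaling and the tumors near the boundary. Lower genes numbered 977 with quantile scaling, 1045 with centring, 1275 without the 2 tumors nearest to the boundary, and 622 to 1070 when 1 tumor was left out, the highest without SC replicate 2. Fewer tumors make separation easier by construction. Higher genes numbered 1033 to 1310 when 1 tumor was left out. Leaving out IK replicate 2 and SC replicate 6 together, chosen after seeing the data, gave 1096 higher and 783 lower genes.

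Of 720 recomputed list medians 700 moved by less than the spread between tumors. Those that moved within IK alone, where 1 tumor stands against 5, were mitosis (-0.27), pericytes (-0.021), red cells (-0.093), dendritic cells (1.16), MHC class I (1.10), MHC class II (1.33), cholesterol (-0.25), unfolded protein response (0.12), ribosomal proteins (0.23), T cell lineage (2.62) and cytotoxic genes (3.55). Within SC alone they were mitosis (-0.079), endothelium (0.49), muscle (5.35), classically activated macrophages (0.97), mast cells and eosinophils (0.92), MHC class II (0.72), cholesterol (0.22) and cytotoxic genes (1.95). With quantile scaling it was the Schwann cell list (-0.17). The cause was not tested.

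Between IK and SC tumors limma called 134 higher and 411 lower genes with array weights, 1 and 0 without the trend, and 0 to 25 higher and 0 to 146 lower when 1 tumor was left out, the highest without IK replicate 2. With the T-cell class in the model 0 genes were called with the continuous Cd3 mean, with array weights or without the trend, and 0 to 25 when 1 tumor was left out. With the replicate number as a block, 0 genes were called with the class in the model and 0 higher and 0 lower without it. By expression the numbers gave no clear pairing. Same-numbered tumors correlated above 0.1 in 2 of 6 pairs, and 1 of 6 IK tumors correlated best with its own number. Weak correlations cannot exclude that the numbers pair tumors. The cause of the changes in these counts was not tested.

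Depth did not limit abundant genes, but Pvalb, Pglyrp2, Ubd and Izumo1r held 2 to 7 reads in their lowest libraries, and Retnla held 0 in IK replicate 4, so the sizes of their differences are imprecise.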
